A study of Mus musculus with 6 samples.

Results

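The genes described here are 9 that mark megakaryocytes and platelets: Ppbp, Pf4, Itga2b, Itgb3, Gp9, Gp6, Vwf, Treml1 and Clec1b. They were chosen by name from known roles, with earlier results of these data known. Each was read from the probe set annotated to that gene symbol alone, the one with the highest mean over the arrays where a gene had several. A probe set was found for 8 of the 9, among 19938 genes with 1. Gp6, the platelet collagen receptor, had no such probe set, so its signal is not analysed here and it enters only the promoter counts. The 6 arrays measured RNA from B-lineage cells of Eµ-Myc mice, whose Myc transgene is driven by an enhancer of the immunoglobulin heavy chain locus and gives rise to B cell lymphomas. There were 2 arrays of lymphomas carrying the short hairpin RNA shEzh2.781, 2 of lymphomas carrying shEzh2.556, and 2 of premalignant splenic B cells from independent preparations, all on the Eµ-Myc background. Both hairpins target Ezh2, the catalytic subunit of polycomb repressive complex 2, which methylates histone H3. The lymphoma cells were purified by CD43 bead depletion with B220 and GFP on at least 95% of cells, per the labels.

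Several features of the design bear on every comparison below. The labels give no age or strain, and nothing in them tells whether both lymphomas of a hairpin came from different mice. The p-values therefore describe only how these samples spread, and that spread may be technical. Every lymphoma analysed here carried an Ezh2 hairpin, so malignancy, the hairpins and the way the cells were prepared cannot be told apart in comparisons with premalignant cells. One label field calls the premalignant samples normal control B cells, whereas their titles and source name them as Eµ-Myc cells, and the second description was used. In RNA from mixed cells, fewer cells of a type and less RNA per cell cannot be told apart. Ezh2 itself had log2 signals of 10.92 and 11.07 with shEzh2.781, 11.20 and 11.30 with shEzh2.556, and 12.64 and 12.70 in premalignant cells. It was lower by limma in lymphomas than in premalignant cells, by -1.55 on the log2 scale (SE 0.10, adjusted p = 1.306e-06). Array medians lay between 6.75 and 6.91, and replicate arrays correlated across genes between 0.9957 and 0.9963. The 9 measured B cell markers, such as Cd79a and Pax5, averaged between 11.27 and 11.60 on the 6 arrays. Of these 9, 4 were lower in lymphomas than in premalignant cells (Blk by -1.03, Ebf1 by -0.49, Blnk by -0.48 and Pax5 by -0.44) and 1, Cd22, was higher by 0.55.

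Megakaryocytes are the large cells of bone marrow, and in mice also of the spleen, that shed platelets. GATA and ETS transcription factors switch on their genes, and the platelets carry the resulting proteins and a pool of the RNA. The alpha granules store chemokines (Ppbp, Pf4), adhesive proteins (Vwf) and Treml1, which moves to the surface on activation. Itga2b and Itgb3 form the fibrinogen receptor integrin αIIbβ3, Gp9 is a chain of the GPIb-IX-V complex that binds von Willebrand factor, and Clec1b (CLEC-2) is the receptor for podoplanin. B cells are not known as a source of most of these proteins.

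The promoters of Ppbp, Pf4 and Gp9 are shown because Ppbp and Pf4 are neighbours on chromosome 5 that also differed most between the premalignant arrays, and Gp9 is a chain of a platelet-specific complex. Each stretch is RefSeq sequence of the GRCm38.p6 build, 300 bases long, from 250 bases before the annotated start to 50 after it, printed 5′ to 3′ on the gene's strand. Capitals mark letters of a searched GATA motif, which is AGATAA with its variants AGATAG and TGATAA and TGATAG, or ETS motif, which is CGGAAG with its variant AGGAAG, on either strand. The motifs do not overlap in these stretches. The 3 regions are chr5:90768268-90768567 for Ppbp, chr5:90772185-90772484 for Pf4 and chr6:87777820-87778119 for Gp9, all on the plus strand.
Ppbp: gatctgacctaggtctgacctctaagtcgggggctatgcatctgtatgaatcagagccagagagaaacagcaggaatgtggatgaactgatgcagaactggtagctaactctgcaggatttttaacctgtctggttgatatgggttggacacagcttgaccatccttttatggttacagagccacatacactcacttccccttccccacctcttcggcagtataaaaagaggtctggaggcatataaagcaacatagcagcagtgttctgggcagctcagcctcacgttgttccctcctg
Pf4: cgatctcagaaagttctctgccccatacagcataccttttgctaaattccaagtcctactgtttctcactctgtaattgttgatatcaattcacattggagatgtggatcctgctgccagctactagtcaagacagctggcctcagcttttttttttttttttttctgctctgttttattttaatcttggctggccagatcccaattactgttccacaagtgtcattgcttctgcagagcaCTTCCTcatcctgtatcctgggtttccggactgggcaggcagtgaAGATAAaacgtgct
Gp9: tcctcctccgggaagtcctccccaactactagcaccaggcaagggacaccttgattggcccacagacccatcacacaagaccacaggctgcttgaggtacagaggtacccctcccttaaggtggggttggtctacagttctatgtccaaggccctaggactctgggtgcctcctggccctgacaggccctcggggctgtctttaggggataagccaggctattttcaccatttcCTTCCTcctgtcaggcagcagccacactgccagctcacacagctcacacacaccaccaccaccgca
Pf4 held a GATA match 36 bases after the start and an ETS match, on the reverse strand, 9 bases before it. Gp9 held an ETS match 16 bases before its start, and the Ppbp window held neither motif. Of the 7 listed genes with an entry in the promoter table, 3 had a GATA match (Pf4, Gp6 and Clec1b), against 29.8% of all 32851 promoters. ETS matches were found in 3 of the 7 (Pf4, Itga2b and Gp9), against 46.5% of all promoters, and both motifs in 1, against 12.6%. A match describes letters and is not evidence of binding.

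In lymphomas, 4 of the 8 measured platelet genes were lower than in premalignant cells and none was higher, by limma across all genes at an adjusted p under 0.05. Over all 19938 genes, 9.61% were lower by the same rule. Because the genes were chosen with earlier results of these data known, such shares are descriptions and no test of the set. The 4 were Ppbp, Itgb3, Pf4 and Gp9, with differences between -3.23 and -0.73 (log2). All 4 lymphoma arrays lay below both premalignant arrays for 5 of the 8 genes (the same 4 and Itga2b), against 16.1% of all genes. The median difference over the 8 was -0.59, against 0.03 over all genes (log2). Every one of the 8 was highest on premalignant array 2, and the spread between the premalignant arrays runs through all the values that follow. The share of all genes highest on that array was not computed, and its median over all genes was the highest of the arrays.

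**Figure D1:**
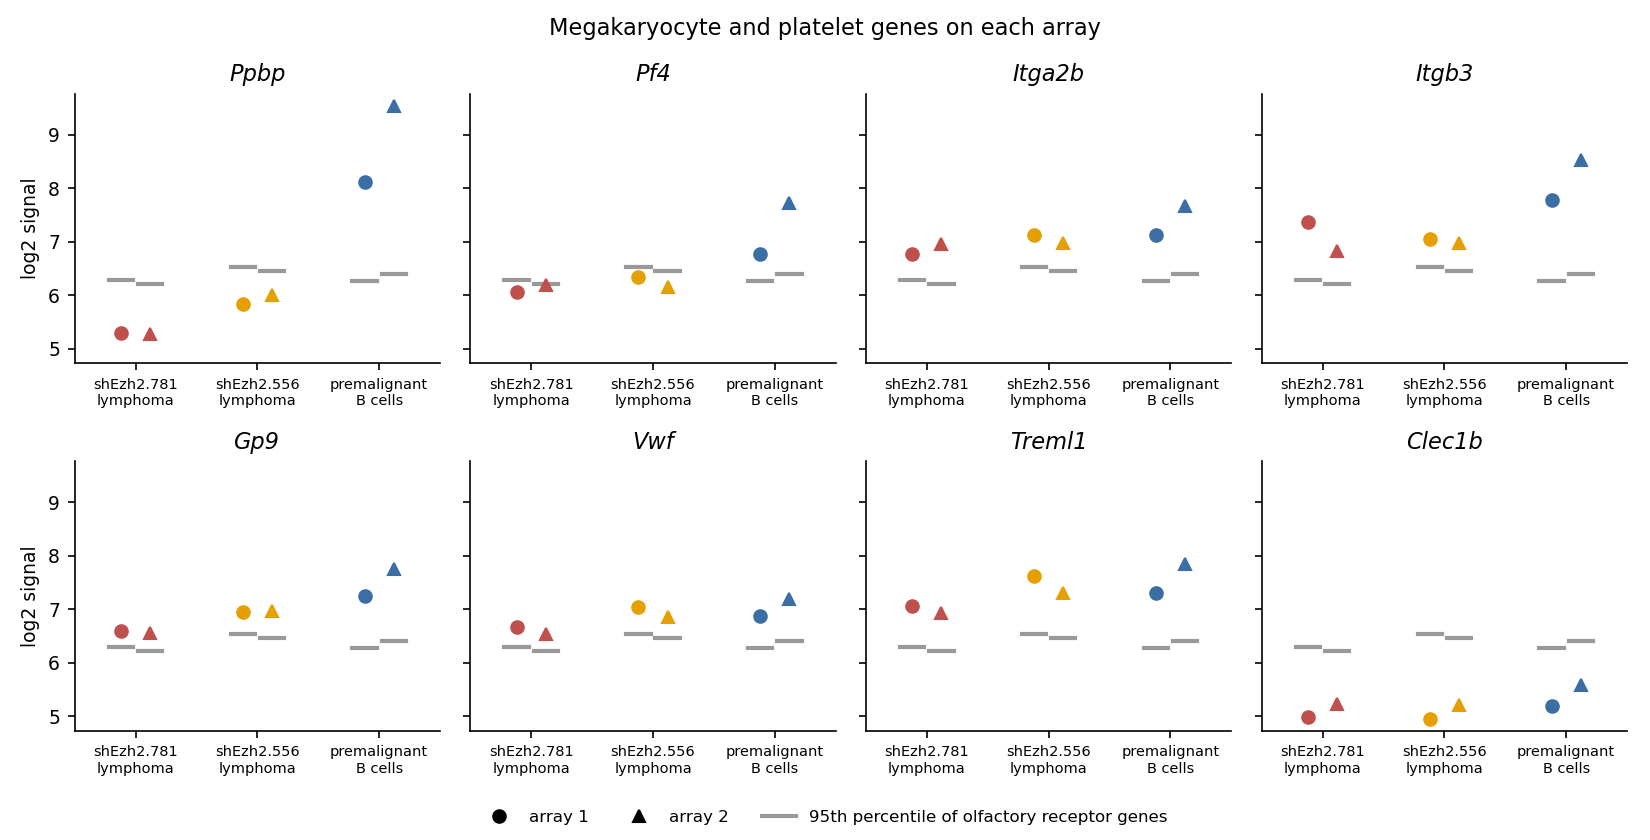
Log2 signal of the 8 measured platelet genes on each array, 1 panel per gene, with circles for array 1 and triangles for array 2 of each group and a grey bar at the 95th percentile of olfactory receptor genes on that array. The premalignant arrays stand farthest above the lymphoma arrays for Ppbp, and the second premalignant array is the highest point in each of the 8 panels.

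Ppbp encodes pro-platelet basic protein, the precursor of CXCL7, a chemokine that draws neutrophils. Its log2 signal was 5.30 and 5.27 with shEzh2.781, 5.83 and 6.01 with shEzh2.556, and 8.12 and 9.54 in premalignant cells. The groups did not overlap, and the gap between the highest lymphoma array and the lower premalignant array, 2.11, exceeded the gap between the premalignant arrays, 1.42. The difference of lymphomas minus premalignant cells was -3.23 (SE 0.27, 95% interval -3.83 to -2.63, adjusted p = 1.08e-05). It was -3.94 without premalignant array 1 and -2.52 without premalignant array 2. To mark the level of genes that blood cells do not use, the 95th percentile of 1027 olfactory receptor genes was taken on each array, between 6.22 and 6.53. This is a rough guide, since probe sets differ in their own background. The Ppbp signal was below that mark on all 4 lymphoma arrays and above it on both premalignant arrays. With the mark in place of the lymphoma signals, the mean of the premalignant arrays was 5.48-fold above it. That value rests on both premalignant arrays and is no lower bound for each.

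Pf4 encodes platelet factor 4 (CXCL4), a heparin-binding chemokine. Its signal was 6.07 and 6.20 with shEzh2.781, 6.35 and 6.15 with shEzh2.556, and 6.78 and 7.72 in premalignant cells. The lymphoma arrays lay close together under the olfactory receptor mark, and both premalignant arrays stood above it, 0.94 apart. The difference was -1.05 (SE 0.20, adjusted p = 0.00325). With the mark in place of the lymphoma signals, the mean of the premalignant arrays was 1.83-fold above it. For Pf4 too this rests on both premalignant arrays and is no lower bound for each. Leaving out premalignant array 1 gave -1.52 (adjusted p = 2.1e-04), whereas leaving out premalignant array 2 gave -0.59 (adjusted p = 0.0268).

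Of the 2 chains of the fibrinogen receptor, 1 passed the test. Itgb3, the β3 chain, which endothelial cells and macrophages can also make, had 7.37 and 6.82 with shEzh2.781, 7.05 and 6.97 with shEzh2.556, and 7.78 and 8.52 in premalignant cells. All lymphoma arrays were below both premalignant arrays, and the shEzh2.781 arrays differed from each other by 0.55. The difference was -1.10 (SE 0.19, adjusted p = 0.00197), a 2.14-fold lower signal, and -0.73 without premalignant array 2 (adjusted p = 0.0478). Itga2b, the αIIb chain, made mainly in the megakaryocyte lineage, had 6.78 and 6.96 with shEzh2.781, 7.13 and 6.97 with shEzh2.556, and 7.13 and 7.66 in premalignant cells. Its first shEzh2.556 array and first premalignant array were level to 2 decimals, so the groups met without overlapping. The difference was -0.44 (SE 0.14, 95% interval -0.75 to -0.13) and missed the threshold (adjusted p = 0.0566). With premalignant array 1 left out it was -0.71 and passed (adjusted p = 0.0101), and with premalignant array 2 left out it was -0.17 and did not (adjusted p = 0.433). Whether the chains differed from each other in their response was not tested.

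Gp9 had 6.59 and 6.55 with shEzh2.781, 6.95 and 6.97 with shEzh2.556, and 7.24 and 7.75 in premalignant cells. The groups did not overlap, with the shEzh2.781 arrays lowest. Lymphomas were lower by 1.66-fold, a difference of -0.73 (SE 0.13, adjusted p = 0.00239), which was -0.99 without premalignant array 1 and -0.48 without premalignant array 2 (adjusted p = 0.0356). Vwf, the ligand of the complex, is made by endothelial cells as well as megakaryocytes. It had 6.66 and 6.54 with shEzh2.781, 7.04 and 6.86 with shEzh2.556, and 6.88 and 7.20 in premalignant cells. One shEzh2.556 array lay above a premalignant array, and the difference of -0.26 (SE 0.12, 95% interval -0.52 to -0.01) did not pass (adjusted p = 0.169). Leaving out premalignant array 1 gave -0.42, leaving out premalignant array 2 gave -0.10, and neither passed.

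The other surface proteins did not pass either. Treml1, an immunoreceptor-like protein of the granule membrane, had 7.06 and 6.93 with shEzh2.781, 7.63 and 7.30 with shEzh2.556, and 7.30 and 7.85 in premalignant cells. The shEzh2.556 arrays lay level with or above premalignant array 1, and the overall difference was -0.35 (SE 0.15, adjusted p = 0.156). Without premalignant array 1 it was -0.62 and passed (adjusted p = 0.0310), and without premalignant array 2 it was -0.08. Clec1b had 4.99 and 5.23 with shEzh2.781, 4.96 and 5.21 with shEzh2.556, and 5.19 and 5.59 in premalignant cells. The second array of each hairpin lay above premalignant array 1. Clec1b was under the olfactory receptor mark on all 6 arrays, so its difference of -0.29 (SE 0.13, 95% interval -0.58 to 0.002) describes signals near background. Leaving out premalignant array 1 gave -0.49 and leaving out premalignant array 2 gave -0.09.

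The 2 premalignant arrays differed more for these genes than replicate lymphoma arrays did. Premalignant array 2 exceeded array 1 for 8 of the 8 genes, against 65.3% of all genes, and by a median of 0.54 against 0.08 over all genes. For Ppbp the difference of 1.42, or 2.68-fold, was exceeded by 4 of the 19938 genes. For Pf4 it was 0.94, exceeded by 22 genes, and for Itgb3 it was 0.74, exceeded by 53. Treml1 (0.54), Itga2b (0.53) and Gp9 (0.51) followed, with 177 to 235 genes above them, then Clec1b (0.41, with 662 above) and Vwf (0.32, with 1700 above). One of the 8, Ppbp, differed by at least 1, as did 0.0903% of all genes. The size of the difference between replicate arrays had a median over the 8 genes of 0.13 with shEzh2.781, 0.18 with shEzh2.556 and 0.54 in premalignant cells, whereas over all genes the medians were 0.10, 0.13 and 0.14. Array 2 was the higher for 3 of the 8 with shEzh2.781 (45.0% of all genes) and for 3 of the 8 with shEzh2.556 (47.7% of all genes). With 1 array on each side, these values are descriptions.

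**Figure D2:**
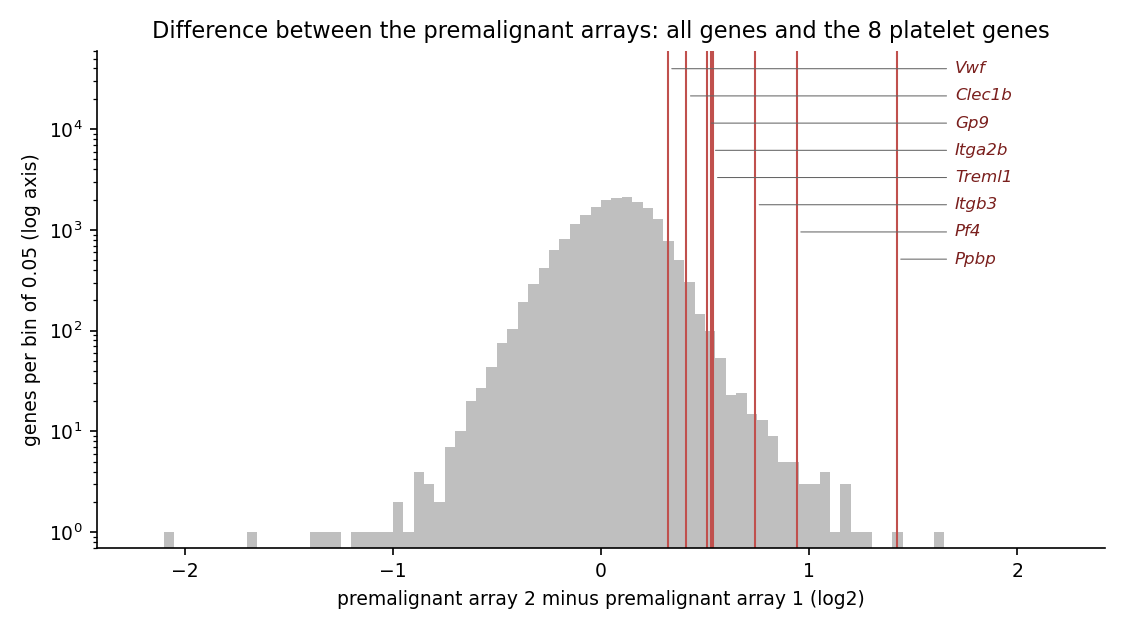
Histogram, on a log axis, of premalignant array 2 minus premalignant array 1 (log2) over 19938 genes, with a red line at each of the 8 platelet genes. All 8 lines lie right of the bulk of genes, from 0.32 for Vwf to 1.42 for Ppbp.

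The counts moved with the premalignant array that was used. Without premalignant array 1, 6 of the 8 genes were lower in lymphomas, the 4 above with Itga2b and Treml1, against 6.42% of all genes, and the median difference was -0.85. Without premalignant array 2, the same 4 genes passed, against 5.41% of all genes, and the median was -0.32. In these fits the lone premalignant array is assumed to vary as the lymphoma arrays do.

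**Figure D3:**
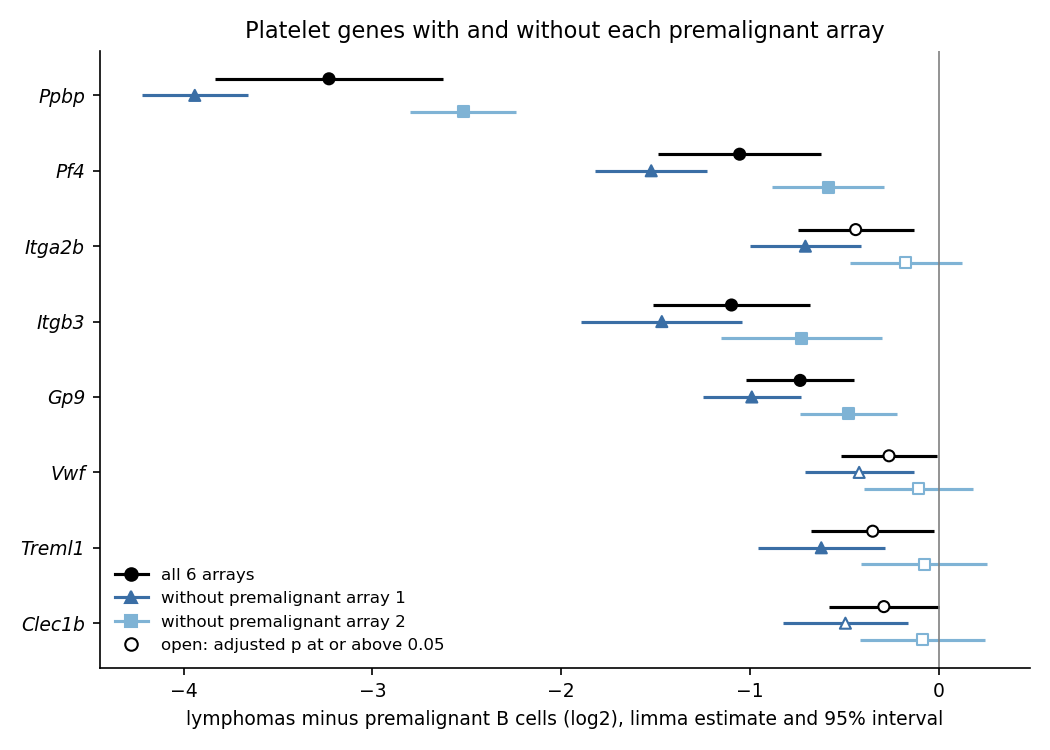
Difference of lymphomas minus premalignant cells (log2) for each of the 8 platelet genes, with all arrays and with each premalignant array left out, and bars for 95% intervals. Without premalignant array 2 the differences shrink toward 0, and that of Ppbp stays the largest of the 8 at -2.52.

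Each hairpin was also set against the premalignant cells, which the 2 comparisons share. With shEzh2.781, 4 of the 8 genes were lower, against 6.24% of all genes, and the median difference was -0.76. With shEzh2.556, 4 were lower, against 11.4% of all genes, and the median was -0.44. In both cases they were Ppbp, Pf4, Itgb3 and Gp9. Ppbp differed by -3.55 with shEzh2.781 and -2.91 with shEzh2.556 (SE 0.32 each), and Gp9 by -0.93 and -0.54 (SE 0.15 each). Without premalignant array 1, 7 of the 8 were lower with shEzh2.781, against 5.17% of all genes. Without the second shEzh2.556 array, 2 were lower with shEzh2.556, against 9.09% of all genes.

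The lymphomas of the hairpins, compared directly, gave no call among the 8 genes by limma, against 4.53% of all genes lower and 5.5% higher with shEzh2.781. At an unadjusted p under 0.05 there were 3 (Gp9, Vwf and Treml1). Both shEzh2.781 arrays lay below both shEzh2.556 arrays for 5 of the 8, against 40.1% of all genes. Ppbp differed by -0.63 (95% interval -1.33 to 0.06, adjusted p = 0.195), Treml1 by -0.47 (-0.85 to -0.09, adjusted p = 0.0961), Gp9 by -0.39 (-0.72 to -0.06, adjusted p = 0.113) and Vwf by -0.35 (-0.64 to -0.06, adjusted p = 0.106). Pf4 differed by -0.11, with a 95% interval from -0.61 to 0.38. Ppbp and Pf4 lay under the olfactory receptor mark on all 4 lymphoma arrays, so their differences between the hairpins compare signals near background. Leaving out either premalignant array, which lowers the estimated spread, gave 2 lower calls with shEzh2.781 (Gp9, and Ppbp with that limit), against 4.86% of all genes.

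Across the 6 arrays the 8 genes moved together. Pearson correlations of the 28 pairs ran from 0.45 to 0.99 with a median of 0.83, over arrays that share the group difference and the offset of premalignant array 2. Among 819 variable genes outside the list, those most like the average profile of the 8 were Nrp1, a semaphorin and VEGF co-receptor (r = 0.994), Thbs1, the granule adhesive protein thrombospondin-1 (0.994), and Cd4, the T helper co-receptor (0.993). Fcrl6, Ccnd2, Ret, Cd8a, Fos, Tmprss3 and Niban3 followed, with r between 0.983 and 0.991. Cd4 had 6.30 and 6.29 with shEzh2.781, 6.64 and 6.40 with shEzh2.556, and 7.51 and 8.57 in premalignant cells. Its premalignant arrays thus differed by 1.06, with array 2 the higher. Cd8a had 6.32 and 6.50 with shEzh2.781, 6.63 and 6.56 with shEzh2.556, and 7.48 and 8.28 in premalignant cells.

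A wider set of megakaryocyte and platelet genes was read beside the 8. Of 73 measured genes of 79 listed, 28 were lower in lymphomas, or 38.4%, and 1 was higher, Itgb1. Over all genes 9.61% were lower and 5.6% higher. This wider set was also chosen with earlier results known, so the shares are descriptions. The median of the 73 was -0.23, and 61 of them were higher on premalignant array 2 than on array 1, against 65.3% of all genes. Without premalignant array 2 the medians of the transcription factor, receptor, granule and signalling lists moved toward 0. For the transcription factors the median went from -0.35 to -0.22.

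Of 12 transcription factors of the megakaryocyte and erythroid lineages, 6 were lower in lymphomas and none was higher, against 9.61% and 5.6% of all genes. Meis1 had 6.01 and 6.10 with shEzh2.781, 6.32 and 6.26 with shEzh2.556, and 7.15 and 7.03 in premalignant cells, a difference of -0.92 (SE 0.10, adjusted p = 5.448e-05). Its premalignant arrays were within 0.12 of each other, and its lymphoma signals lay under the olfactory receptor mark. Erg (-0.89), Runx1 (-0.83) and Gfi1b (-0.79) also passed, as did Nfe2 (-0.56), which drives platelet release, and the GATA cofactor Zfpm1 (-0.36). Meis1, Erg and Runx1 are also used by stem and early lymphoid cells, and Gfi1b by erythroid cells. Gata1, the main GATA factor of the lineage, differed by -0.34 and did not pass (adjusted p = 0.0989). By limma it differed from premalignant cells by -0.61 with shEzh2.781 (adjusted p = 0.0200) and by -0.08 with shEzh2.556 (adjusted p = 0.715). It was lower with shEzh2.781 than with shEzh2.556 by -0.53, a call lost under quantile normalization and median centring. Nor did the ETS factor Fli1 pass (-0.16, adjusted p = 0.366).

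Among 22 receptors and adhesion proteins 7 were lower and 1 was higher, against 9.61% and 5.6% of all genes. Cd63, a tetraspanin of dense granules and lysosomes found in many cells, had 5.06 and 5.58 with shEzh2.781, 4.74 and 5.05 with shEzh2.556, and 6.90 and 6.48 in premalignant cells. It differed by -1.58 (SE 0.16, adjusted p = 4.648e-05), and premalignant array 2 was the lower of the pair. The ATP-gated channel P2rx1 differed by -0.66, and Fcer1g, the signalling chain that pairs with Gp6 and also serves myeloid cells, by -0.75. The lymphoma signals of Cd63 and P2rx1 lay under the olfactory receptor mark. The β1 integrin chain Itgb1, which most cells make, was higher in lymphomas by 0.63 (SE 0.11, adjusted p = 0.00186). The median of the 22 receptors was -0.14 with all arrays and -0.09 without premalignant array 2.

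Of 11 further granule proteins 6 were lower and none was higher, against 9.61% and 5.6% of all genes. Thbs1 had 6.67 and 6.63 with shEzh2.781, 7.08 and 7.01 with shEzh2.556, and 8.08 and 8.94 in premalignant cells, a difference of -1.66 (SE 0.18, adjusted p = 6.789e-05). The others were F13a1 (-0.84), the growth factor Tgfb1 (-0.61), which many blood cells make, and Mmrn1, F5 and Angpt1. The last 3 were at or below the olfactory receptor mark on all arrays. F13a1 had 6.52 and 7.09 with shEzh2.781, 6.16 and 5.56 with shEzh2.556, and 6.72 and 7.62 in premalignant cells. By limma it differed from premalignant cells by -1.31 with shEzh2.556 (adjusted p = 0.00664) and by -0.36 with shEzh2.781 (adjusted p = 0.525). The median of the 11 was -0.44 with all arrays, -0.47 without premalignant array 1 and -0.38 without premalignant array 2.

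Of 28 signalling and cytoskeletal genes 9 were lower and none was higher, against 9.61% and 5.6% of all genes. Rgs18, a regulator of G protein signalling abundant in platelets, had 5.28 and 5.73 with shEzh2.781, 5.11 and 4.94 with shEzh2.556, and 7.22 and 7.85 in premalignant cells. Its difference was -2.27 (SE 0.17, adjusted p = 4.496e-06). Pde5a, the phosphodiesterase that breaks down cyclic GMP in platelets and smooth muscle, had 4.70 and 4.66 with shEzh2.781, 4.88 and 4.74 with shEzh2.556, and 6.75 and 6.99 in premalignant cells, a difference of -2.12 (SE 0.11, adjusted p = 1.703e-07). Tubb1, the β1-tubulin of the platelet marginal band, had 7.13 and 6.91 with shEzh2.781, 7.23 and 7.12 with shEzh2.556, and 7.51 and 8.27 in premalignant cells. It differed by -0.79 (SE 0.17, adjusted p = 0.00756). The adaptor Lat (-0.60) and the lipoxygenase Alox12 (-0.61) also passed. Rgs18, Pde5a and Alox12 lay under the olfactory receptor mark on the lymphoma arrays. The median of the 28 was -0.16 with all arrays and -0.12 without premalignant array 2.

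**Figure D4:**
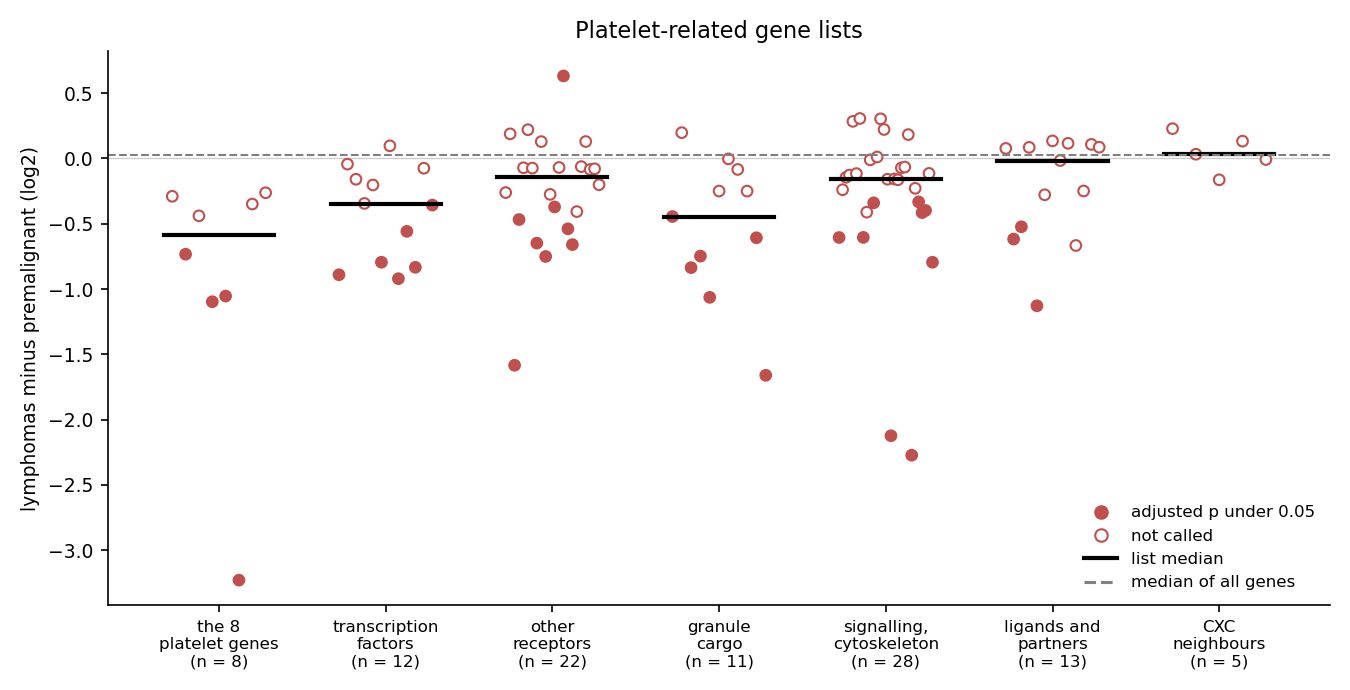
Differences of lymphomas minus premalignant cells (log2), 1 point per gene, for the 8 platelet genes, the 4 wider platelet lists, 13 ligands and partners and 5 chemokine neighbours, with bars at list medians and a dashed line at the median of all genes. Filled points passed an adjusted p under 0.05 and open points did not, and the medians run from 0.03 for the chemokines to -0.59 for the 8 genes.

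Binding partners of the platelet proteins and the CXC chemokine neighbours of Ppbp and Pf4 gave smaller shares of lower calls than the 38.4% of the wider platelet genes. Of 13 measured partners 3 were lower in lymphomas, or 23.1%, against 9.61% of all genes. They were the collagen chains Col1a1 (-0.62) and Col1a2 (-0.52), which bind Gp6, and Cxcr2 (-1.13), the receptor for CXCL7 and a gene of neutrophils. The median of the 13 was -0.02 with all arrays and -0.01 without premalignant array 2. Cxcr2 differed from premalignant cells by 0.03 with shEzh2.781 (adjusted p = 0.972) and by -2.29 with shEzh2.556 (adjusted p = 1.8e-04), and was higher with shEzh2.781 than with shEzh2.556 by 2.32 (SE 0.28, adjusted p = 5.59e-04). Podoplanin (Pdpn), the ligand of CLEC-2, differed by 0.11. None of 5 chemokine neighbours (Cxcl1, Cxcl2, Cxcl3, Cxcl5, Cxcl15) was called by limma in lymphomas against premalignant cells, and 0 had an unadjusted p under 0.05. For 4 of the 5 the signal was at or below the olfactory receptor mark on all arrays, and the remaining one, Cxcl1, differed by 0.23.

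Markers of other blood and vessel cells were read on the same arrays. Beside the counts of these lists, 9.61% of all genes were lower and 5.6% higher in lymphomas than in premalignant cells. All 12 neutrophil markers were lower in lymphomas, with a median of -2.07 and mean signals of 8.02 and 8.67 with shEzh2.781, 6.92 and 6.30 with shEzh2.556, and 9.37 and 9.64 in premalignant cells. All 12 were also higher with shEzh2.781 than with shEzh2.556, by a median of 1.91, against 5.5% of all genes higher. None of the 8 platelet genes was called between the hairpins by limma (3 at an unadjusted p under 0.05). Of 10 eosinophil, basophil and mast cell markers 6 were lower, with a mean signal between 5.40 and 5.49 on the lymphoma arrays, against 6.70 and 6.81 on the premalignant arrays. Their median difference between the premalignant arrays was 0.08, against 0.54 for the platelet genes.

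Of 9 erythroid markers 6 were lower in lymphomas, against 9.61% of all genes, with a list median of -1.01. Their means were 6.23 and 6.81 with shEzh2.781, 8.01 and 7.53 with shEzh2.556, and 7.83 and 8.15 in premalignant cells. With shEzh2.781 8 of the 9 were lower than in premalignant cells, against 6.24% of all genes. With shEzh2.556 none was by limma, against 11.4% of all genes. All 9 were higher on premalignant array 2, by a median of 0.41, and the list median in lymphomas was -0.80 without that array. Of 9 progenitor markers 5 were lower, and the list median was -0.36 with all arrays and -0.31 without premalignant array 2. Of 11 T and NK cell markers 5 were lower, and the list median was -0.13 with all arrays and -0.09 without premalignant array 2. The T and NK cell means lay between 6.22 and 6.50 on the lymphoma arrays against 6.72 and 6.95 on the premalignant arrays. Cd4 and Cd8a are among the 5 lower T and NK cell markers, whereas Cd3e differed by 0.12 (adjusted p = 0.644).

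Among 12 endothelial markers 1 was lower and 2 were higher in lymphomas, against 9.61% and 5.6% of all genes. Between the hairpins 6 of the 12 were lower with shEzh2.781 than with shEzh2.556 and none was higher. Over all genes 4.53% were lower and 5.5% higher in that comparison. All 12 endothelial markers were higher on premalignant array 2, by a median of 0.29. Among 11 macrophage markers none was lower and 3 were higher in lymphomas, against the same 9.61% and 5.6% of all genes. Between the premalignant arrays 9 of 9 erythroid, 12 of 12 endothelial and 9 of 9 progenitor markers were higher on array 2, against 65.3% of all genes. The counts were 10 of 12 for neutrophil, 9 of 10 for eosinophil, basophil and mast cell, 9 of 11 for T and NK cell, 6 of 11 for macrophage and 5 of 9 for B cell markers. The part of other cells in the platelet gene values was not tested.

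**Figure D5:**
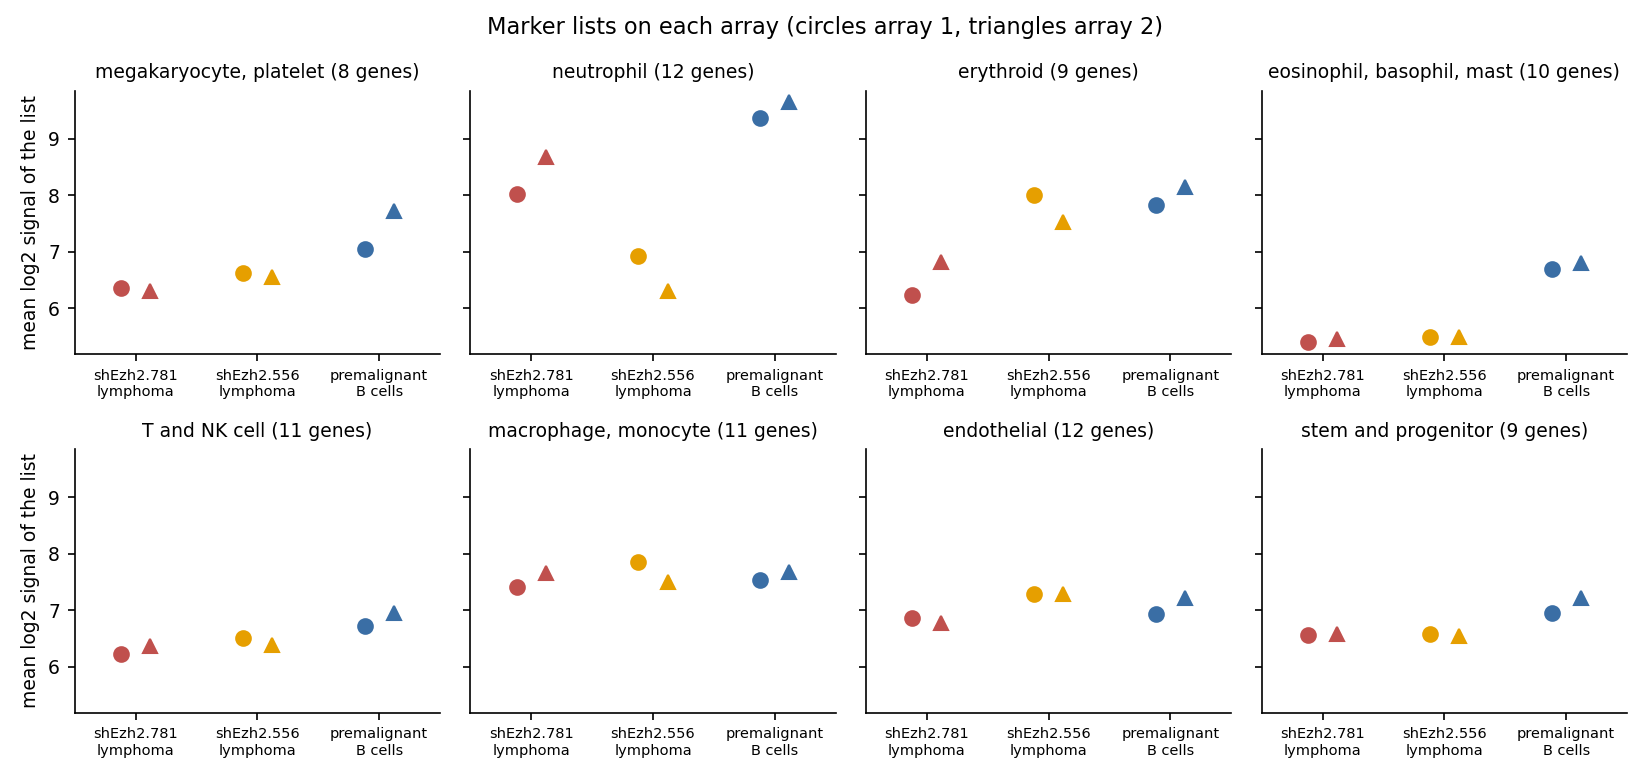
Mean log2 signal of the 8 platelet genes and of each marker list on the 6 arrays, with circles for array 1 and triangles for array 2 of each group. Neutrophil and eosinophil markers are highest on the premalignant arrays, and the erythroid markers with shEzh2.556 lie near the premalignant level.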

How the data were processed

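RNA of 6 samples was hybridised to 1-colour Affymetrix Mouse Gene 1.0 ST arrays. For every probe set the authors deposited 1 normalized value, and the log2 scale of these deposited values, from 2.3009 to 14.2197, was inferred from the values. Background correction, normalization and summarization are not given in the sources used here. Detection calls and scan batches were not used here, and precision is limited by the number of arrays.

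The platform annotation gave 1 gene symbol to 21789 of 35512 probe sets, several to 1621 and none to 12102. Of those with 1 symbol, 21698 matched the RefSeq gene table (GRCm38.p6) and 0 symbols changed. The probe set with the highest mean stood for each of 999 genes with more than 1. The values name no build, so coordinates are given for promoters alone.

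One model over all 3 groups, without intercept or covariates, was fitted in R 4.3.3 by limma 3.58.1 (8.51 prior and 3 residual degrees of freedom), with Benjamini-Hochberg adjustment over 19938 genes. Lymphomas (the mean of both hairpins) and then each hairpin alone were set against premalignant cells, and shEzh2.781 against shEzh2.556. The fit was tested on simulated data. Python 3.11.15 was used for tables (numpy 2.4.6, pandas 2.3.3) and plots (matplotlib 3.10.9).

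The genes and lists were chosen with earlier results of these data known. All 9 platelet genes are named. In other lists up to 4 genes with the smallest p, and any gene where its list is described, may be named. The 10 most similar genes are those with the highest Pearson correlation with the mean centred profile of the 8 genes, among genes with an SD of at least 0.5 and without predicted genes, receptor segments, olfactory and vomeronasal receptors and small RNAs. Alternatives were leaving out each array, the replicate number as a block, quantile normalization, median centring, an intensity trend, robust moderation, a filter on dim genes (13285 kept), the mean of a gene's probe sets, all probe sets, and the lymphomas as 1 group.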

Additional observations from a re-analysis of the deposited data

Results flagged for a closer look

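Between the hairpins, 8 of the 73 wider platelet genes differed by limma, as a test of shEzh2.781 against shEzh2.556 itself. Over all genes 2000 of 19938 were called in either direction (4.53% lower and 5.5% higher), a share close to that of the 73, so the count is no result about platelet genes. Of 22 receptors 4 were lower with shEzh2.781 and none was higher. The thromboxane receptor Tbxa2r had 7.37 and 7.51 with shEzh2.781 against 8.41 and 8.53 with shEzh2.556, a difference of -1.03 (SE 0.12, adjusted p = 3.25e-04). The fatty acid and thrombospondin receptor Cd36 differed by -0.74 (adjusted p = 0.0209). The thrombin receptor F2rl3 differed by -0.54 (adjusted p = 0.0273) and the junction protein F11r by -0.52 (adjusted p = 0.0408). Among granule proteins Clu differed by -0.56 (adjusted p = 0.0455) and Pdgfb by -0.49 (adjusted p = 0.0280). Gata1 had 6.27 and 6.35 with shEzh2.781 against 6.97 and 6.71 with shEzh2.556 (-0.53, adjusted p = 0.0436). Ano6, the phospholipid scramblase that exposes phosphatidylserine, was higher with shEzh2.781, at 11.55 and 11.21 against 10.16 and 10.43 (1.09, SE 0.14, adjusted p = 8.47e-04). Arrays of the hairpins did not overlap for these 8 genes, which adds no support because the genes were picked by the same difference. Over all genes, 40.1% had both shEzh2.781 arrays below both shEzh2.556 arrays, the direction of these genes except Ano6. Under quantile normalization Tbxa2r and Ano6 were still called and the other 6 were not, with adjusted p from 0.0541 to 0.122. Under median centring Tbxa2r, Ano6 and Pdgfb were still called and the other 5 were not, with adjusted p from 0.0565 to 0.0644. Leaving out 1 array gave between 2 and 11 calls: 2 without the first and 3 without the second shEzh2.556 array, and 5 without the second shEzh2.781 array.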

How the results depend on the processing

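With 2 arrays in a group, each of which can decide a call, the limits are the premalignant spread, signals near background and array offsets of unknown origin. Near background in lymphomas were Ppbp, Pf4, Meis1, Cd63, P2rx1, Rgs18, Pde5a and Alox12 among others, and Clec1b was so on all arrays. Of single-gene results for the 8 genes under the alternatives, 406 kept direction and side of the threshold, 21 came to pass, 16 no longer passed and 9 changed sign. The cause was not tested. Leaving out each array gave 4 to 6 of 8 genes called for lymphomas, 3 to 7 for shEzh2.781 (7 without premalignant array 1) and 2 to 5 for shEzh2.556 (2 without its second array), and 0 to 2 between hairpins. For the 73 wider genes it gave 13 to 27 in lymphomas, 13 being without premalignant array 2, and 2 to 11 between hairpins. The share of all genes called also moved with the array left out. With all probe sets tested, 3 genes passed in lymphomas (Pf4 lost, adjusted p = 0.0590), 2 with shEzh2.781, 1 with shEzh2.556, and of the wider genes 14 in lymphomas and 2 between hairpins. Of all probe sets 4.77% were lower in lymphomas, 2.13% with shEzh2.781 and 5.42% with shEzh2.556. In the main fit these shares were 9.61%, 6.24% and 11.4% of all genes. Between hairpins 0.315% of all probe sets were lower and 0.577% higher with shEzh2.781. With the lymphomas as 1 group, 3 of the 8 (Gp9 lost, adjusted p = 0.0558) and 13 of the wider genes passed. In that fit 3.42% of all genes were lower and 2.05% higher. Between hairpins the wider count was 3 under quantile normalization and 4 under median centring, against 8. Shares of all genes were not computed for these settings or for robust moderation. Robust moderation kept 4 genes, with Itga2b in (adjusted p = 0.0470) and Pf4 out (adjusted p = 0.0597). Between hairpins Pf4 was 0.0716 under quantile normalization and 0.0008 under median centring, against -0.11. Leaving out 1 array, Itgb3 ran from -0.18 to 0.37 and Clec1b from -0.10 to 0.15 between hairpins, and Vwf from -0.2445 to 0.0719 and Treml1 from -0.39 to 0.16 for shEzh2.556 minus premalignant cells. Deviations of same-numbered arrays correlated at 0.064, -0.091 and -0.124 across genes, so the numbers are only shared. With the replicate block, 5 genes passed in lymphomas (Itga2b added, adjusted p = 0.0427), 5 with shEzh2.781, 4 with shEzh2.556 and 0 between hairpins, and 27 and 10 of the wider genes. Over all genes 9.19% were then lower in lymphomas, 6.06% with shEzh2.781 and 10.8% with shEzh2.556. Between hairpins 3.74% of all genes were lower and 5.21% higher with shEzh2.781. The median premalignant difference of the 8 genes ran from 0.41 to 0.54.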
